A study of Mus musculus with 10 samples.

Results

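MHC class I antigen presentation was followed in the rd10 mouse retina through 10 genes: B2m, H2-K1, H2-D1, Tap1, Tap2, Tapbp, Psmb8, Psmb9, Psmb10 and Nlrc5. The genes were taken by name, and 7 of the 10 are in the table of 11702 genes. Tap1, Psmb8 and Psmb9 are not in that table, so their counts were read from the transcript table, summed over the transcripts of each gene. That summed table holds 48905 genes in all.

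Retinal RNA of 10 female mice was sequenced in 3 groups. There were 4 WT DMSO libraries (W1 to W4), 3 rd10 DMSO libraries (D1 to D3) and 3 rd10 HAL libraries (H1 to H3), HAL being halofantrine, an antimalarial drug. Halofantrine at 20 μM, or the DMSO vehicle, was given as 1 μL in the vitreous at P10 and P24, and the RNA is of retinas taken at P36. The rd10 animals, of the strain B6.CXB1-Pde6brd10/J, are mutant in Pde6b, which encodes part of the phosphodiesterase of rods, and their rods degenerate, while the strain of the WT animals is not given in the sources used here. Every group had been injected, so no library shows an eye without injection. W1 to W4, D1, D2 and H1 carry the label batch 1, and D3, H2 and H3 the label batch 2. The labels do not say what a batch was. The sample titles also name sets: W1 to W3 share a set and W4 has a set of its own, D1, D2 and H1 share another, H2 and H3 a further one, and D3 stands alone in the last. No set holds both genotypes, so set and genotype cannot be told apart.

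Class I molecules show short peptides from inside the cell to CD8 T cells. A heavy chain, such as H2-K1 or H2-D1, pairs with the light chain B2m. Peptides are cut by the proteasome, whose catalytic subunits can be exchanged for the inducible Psmb8, Psmb9 and Psmb10, and are carried into the endoplasmic reticulum by the transporter of Tap1 and Tap2, to which Tapbp (tapasin) tethers the empty molecule. Nlrc5 is the transactivator that acts on class I promoters, together with the RFX, CREB and NF-Y factors bound there, and interferons raise most of these genes. Neurons of the healthy retina show little class I, while microglia, Müller glia and vessels can express more.

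The DNA before the start of class I genes shows where these factors can act. The bases upstream of the start are printed for the heavy chains and light chain and for the stretch between Psmb9 and Tap1, which start on opposite strands. Sequences are from RefSeq on GRCm38.p6, 5′ to 3′, and capitals mark every match, on either strand, to 1 of 7 motifs. The motifs were GAANNGAAA and GAAANNGAA (cores of interferon response elements that differ in spacing, the second added after the promoters were seen), TTCNNNGAA (STAT element), GGANTTTCC and GGATTCCCC (NF-κB sites), TGACG (core of the X2 box) and CCAAT (Y box), and no matches of different motifs overlapped in the printed stretches. 8 of the 10 genes have an entry in the promoter table, and Tap2 and Nlrc5 were not matched.
H2-K1, chr17:34000348-34000597, minus strand: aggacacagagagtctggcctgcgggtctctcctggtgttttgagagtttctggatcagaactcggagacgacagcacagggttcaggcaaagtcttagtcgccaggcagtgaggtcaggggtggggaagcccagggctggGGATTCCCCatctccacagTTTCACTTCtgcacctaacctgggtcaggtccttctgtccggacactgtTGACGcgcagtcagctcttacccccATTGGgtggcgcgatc
H2-D1, chr17:35262844-35263093, plus strand: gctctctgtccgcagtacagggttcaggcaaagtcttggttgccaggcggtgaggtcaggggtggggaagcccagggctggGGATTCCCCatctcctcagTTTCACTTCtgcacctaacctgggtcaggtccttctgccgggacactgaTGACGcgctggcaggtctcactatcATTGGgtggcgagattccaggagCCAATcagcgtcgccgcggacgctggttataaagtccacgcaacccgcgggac
B2m, chr2:122147437-122147686, plus strand: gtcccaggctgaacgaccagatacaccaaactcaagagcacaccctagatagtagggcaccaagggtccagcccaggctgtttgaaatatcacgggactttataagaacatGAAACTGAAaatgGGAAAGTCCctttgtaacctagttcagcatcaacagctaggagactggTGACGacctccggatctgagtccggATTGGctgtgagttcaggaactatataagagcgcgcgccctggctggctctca
Psmb9 to Tap1, chr17:34187331-34187555, plus strand: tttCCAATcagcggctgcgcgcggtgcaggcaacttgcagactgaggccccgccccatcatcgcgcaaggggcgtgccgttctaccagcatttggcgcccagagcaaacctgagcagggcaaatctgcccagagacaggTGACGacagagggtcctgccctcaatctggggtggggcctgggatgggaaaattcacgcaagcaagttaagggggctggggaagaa

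Both heavy chain promoters held GGATTCCCC followed by TTTCACTTC, the interferon motif GAANNGAAA read on the opposite strand, then TGACG and a Y box. Of all 32851 promoters of the same length, 0.24% held GGATTCCCC, 6.31% GAANNGAAA, 17.8% TGACG and 33.8% CCAAT. With a shift of 60 bases, 87.4% of 190 compared bases were the same in the H2-K1 and H2-D1 promoters. B2m held the interferon motif GAAANNGAA, found in 7.13% of promoters, and a match to GGANTTTCC, which 1.07% of promoters held, with TGACG and a Y box. The 225 bases between the Psmb9 and Tap1 starts held TGACG and CCAAT once each. Of the promoters not printed, that of Tapbp held CCAAT alone, that of Psmb8 held a match to TTCNNNGAA, which 7.02% of promoters held, and that of Psmb10 held none of the 7 motifs in these 250 bases. These matches are descriptions of the letters, and no binding was measured.

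Counts on genes ranged from 15512212 in D3 to 38160436 in D2. The WT label was checked on Pde6b, which stood at 2699, 2850 and 2855 CPM (TMM-scaled CPM, each gene's counts relative to the scaled size of its library) in W1 to W3 and at 93.1 in the library labelled WT W4, against 125 to 387 in rd10. The 12 rod markers described with the other cell types summed to 2886 CPM in W4, below every rd10 library. W4 thus goes against its label, and each comparison with WT is given without it and with it. D3, H2 and H3 of batch 2 held more rod RNA than D1, D2 and H1, with Pde6b at 387, 373 and 249.4 CPM against 125 to 157. Since the RNA is of whole retina, more cells of a type and more RNA per cell cannot be told apart.

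Most class I presentation genes were several times higher in rd10 than in W1 to W3. Of the 7 genes in the gene table, 6 rose in rd10 DMSO against W1 to W3 and 0 fell, where 32.3% of 11696 tested genes rose (edgeR, adjusted p under 0.05). The 3 genes of the transcript table rose too, where 26.9% of 17324 tested genes rose. The median log2 fold change was 1.41 over the 7 genes and 1.94 over the 3, against -0.01 and 0.00 over all genes of the same fits. In 6 of 7, and in each of the 3 others, all 6 rd10 libraries lay above W1 to W3, as they did in 31.4% of all genes in the gene table. Tapbp was the exception in each count. With W4 among the WT libraries, edgeR called 0 of 7 and 0 of 3, where 0% of 11698 and 0.00566% of 17660 genes were called. At an unadjusted p under 0.05 these were 2 of 7 and 2 of 3, where 26.6% and 24.3% of all genes passed, and DESeq2 and limma-voom also called 0 of 7. The median log2 fold change over the 7 was then 0.99.

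**Figure D1:**
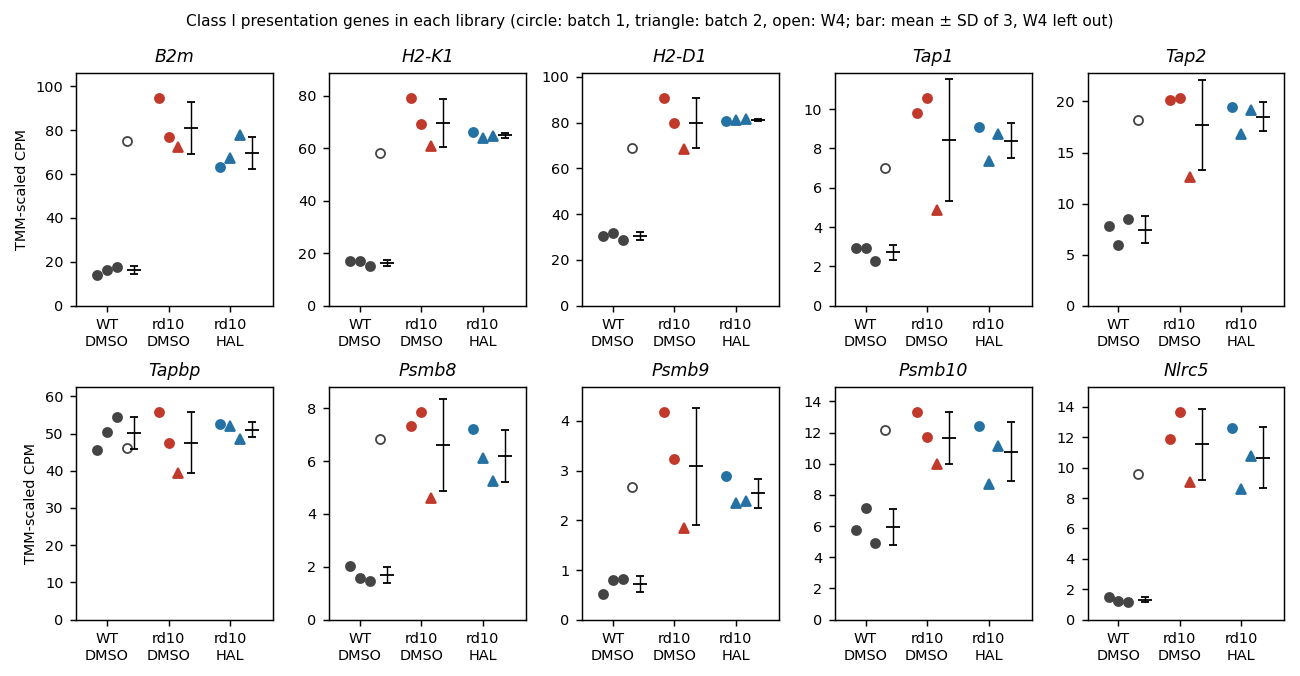
Level of each gene in each library, in TMM-scaled CPM on axes that start at 0. Circles are batch 1, triangles batch 2, the open circle is W4, and bars give mean ± SD of 3 libraries per group with W4 left out. W1 to W3 lie below every rd10 library in each panel except that of Tapbp.

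B2m, the light chain shared by all class I molecules, showed 14.2, 16.2 and 17.8 CPM in W1 to W3. It was at 94.6, 76.7 and 72.2 CPM in D1 to D3 and at 63.4, 67.4 and 77.9 in H1 to H3. The rd10 groups overlapped each other, and neither came near W1 to W3. W4, at 75.2 CPM, lay inside the rd10 range. B2m was 5.10-fold higher in rd10 DMSO than in W1 to W3 (log2 fold change 2.35 ± 0.13 (SE), n = 3 against 3, edgeR adjusted p = 1.8e-05). With W4 included the log2 fold change was 1.39, with a 95% interval from -0.03 to 2.81 (edgeR adjusted p = 0.188).

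H2-K1, a classical heavy chain, had 17.2, 17.0 and 15.1 CPM in W1 to W3. The DMSO-treated rd10 retinas had 79.1, 69.2 and 60.8 CPM and the halofantrine-treated ones 66.1, 64.0 and 64.5. W4 was at 58.2 CPM, the only case among the 10 genes in which W4 lay outside the rd10 range, just below D3. The rise was 4.27-fold (log2 fold change 2.10 ± 0.11, edgeR adjusted p = 1.7e-05), and with W4 included 1.37 on the log2 scale (edgeR adjusted p = 0.187). H2-D1, the second classical heavy chain, reached 30.4, 32.0 and 28.6 CPM in W1 to W3, 90.7, 79.9 and 68.6 in D1 to D3 and 80.7, 81.2 and 81.4 in H1 to H3. It rose by 1.41 ± 0.11 on the log2 scale (edgeR adjusted p = 4.8e-05), or 0.99 with W4 (edgeR adjusted p = 0.187). The H2-K1 interval, 1.83 to 2.36, and the H2-D1 interval, 1.16 to 1.66, did not overlap, although the difference between the genes was not tested.

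H2-K1 and H2-D1 are near copies of each other and of other heavy chains, so the estimated counts may be split between them with error. Their sum, which a split between them leaves as it is but a split with other heavy chains does not, was 43.7 to 48.9 CPM in W1 to W3, 127 in W4, 129 to 170 in rd10 DMSO and 145 to 147 in rd10 HAL. The mean of rd10 DMSO was 3.20-fold that of W1 to W3. Other heavy chains rose as well. In a list of 18 such genes, of which 10 were tested, 6 rose and 1 fell, in a fit where 26.9% of genes rose and 25.5% fell. With scaling by library size alone 7 rose and 1 fell, where 40.3% and 13.9% of all genes did. Without D3, 7 rose and 1 fell of 11 tested, where 29.9% and 29.7% of all genes did. H2-Q4 rose most surely, from 3.37, 5.75 and 5.78 CPM in W1 to W3 to between 18.3 and 21.7 in rd10 (log2 fold change 1.99 ± 0.20 in rd10 DMSO, edgeR adjusted p = 0.00016). H2-Q7 (log2 fold change 1.45) and H2-T22 (1.08) followed it by p. The gene that fell, H2-Ke6 (log2 fold change -0.65), carries an H2 name for its place in the locus but encodes a hydroxysteroid dehydrogenase. The listed heavy chains without H2-Ke6 had a summed level of 24.3 to 29.3 CPM in W1 to W3 against 62.0 to 80.4 in rd10, a 2.71-fold difference between the means of rd10 DMSO and W1 to W3.

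Both genes of the transporter rose, while that of the tether was not called. Tap1, one chain of the transporter, gave 2.94, 2.92 and 2.28 CPM in W1 to W3, 9.83, 10.6 and 4.86 in D1 to D3 and 9.10, 7.38 and 8.71 in H1 to H3. Its lowest rd10 value, that of D3, rested on 79 counts. Tap1 rose 3.05-fold (log2 fold change 1.61 ± 0.30, edgeR adjusted p = 0.003), and W4 had 7.02 CPM. Tap2, the other chain, measured 7.83, 5.95 and 8.52 CPM in W1 to W3, 20.2, 20.3 and 12.6 in D1 to D3 and 19.4, 16.9 and 19.2 in H1 to H3. It rose 2.42-fold (log2 fold change 1.27 ± 0.22, edgeR adjusted p = 0.0017), with W4 at 18.2 CPM. Most Tap2 counts lay on a transcript annotated with a retained intron, Tap2-202, whose share was 56.7% to 62.1% in W1 to W3 and 67.6% to 78.4% in rd10, so the protein-coding share was lower in rd10. These shares are estimates with no test.

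Tapbp showed 45.6, 50.4 and 54.4 CPM in W1 to W3, 55.8, 47.5 and 39.4 in D1 to D3 and 52.4, 52.1 and 48.7 in H1 to H3. The 3 groups and W4, at 46.2 CPM, overlapped. The log2 fold change in rd10 DMSO was -0.06 with a 95% interval from -0.36 to 0.24 (edgeR adjusted p = 0.69), and its sign turned to 0.14 when libraries were scaled by size alone, a scaling that moved the median of all genes to 0.19. The interval leaves out a change as large as the estimate of any of the other 9 genes. Among 10 chaperones and trimming enzymes of the same path, 3 rose and 1 fell, near or below the 26.9% and 25.5% of all genes, whereas 6 rose and 0 fell under the same scaling by size, and 4 rose and 2 fell without D3. Over all genes, scaling by size alone raised the share called higher to 40.3% and lowered the share called lower to 13.9%, and without D3 the shares were 29.9% and 29.7%. Erap1, the aminopeptidase that trims peptides in the endoplasmic reticulum, was at 18.3 to 19.4 CPM in W1 to W3 and 25.1 to 32.4 in rd10 (log2 fold change 0.69, edgeR adjusted p = 0.00034). Tapbpl, a tapasin relative that edits peptides, rose by 1.04, and Pdia3, an oxidoreductase of the loading complex, by 0.27. Npepps, a cytosolic aminopeptidase, fell by 0.29, a change that became -0.05 and was not called with libraries scaled by size.

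**Figure D2:**
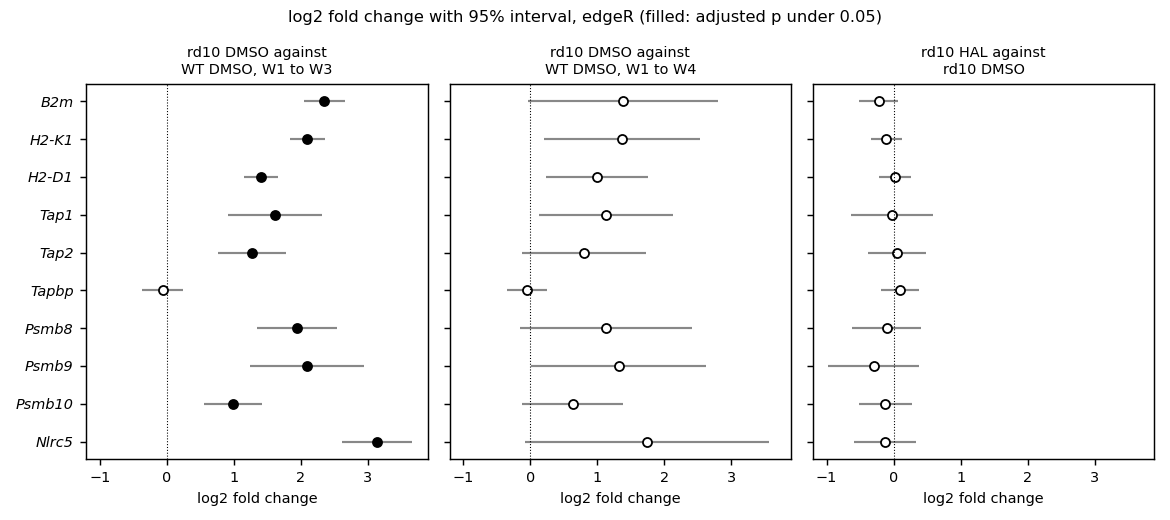
Log2 fold change of the 10 genes with 95% intervals from edgeR, in rd10 DMSO against W1 to W3, in the same comparison with W4 included, and in rd10 HAL against rd10 DMSO. Filled points passed an adjusted p of 0.05. In the first panel 9 of 10 genes are filled, and in the other panels 0 are.

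All 3 inducible proteasome subunits were higher in rd10. Psmb8 had 2.04, 1.56 and 1.46 CPM in W1 to W3, 7.33, 7.85 and 4.61 in D1 to D3 and 7.22, 6.13 and 5.24 in H1 to H3. It rose 3.83-fold (log2 fold change 1.94 ± 0.26, edgeR adjusted p = 0.00057). Psmb9 was the least abundant in counts, with 11, 16 and 14 counts in W1 to W3 and 30 to 129 in rd10. In CPM it was at 0.522, 0.807 and 0.817 in W1 to W3, at 4.18, 3.24 and 1.85 in D1 to D3 and at 2.89, 2.35 and 2.40 in H1 to H3. The rise was 4.27-fold with a wide 95% interval of 1.24 to 2.95 on the log2 scale (edgeR adjusted p = 0.0022). Psmb10 reached 5.74, 7.16 and 4.90 CPM in W1 to W3, 13.3, 11.7 and 9.96 in D1 to D3 and 12.4, 8.72 and 11.1 in H1 to H3, and rose 1.98-fold (log2 fold change 0.98 ± 0.18, edgeR adjusted p = 0.0024). W4 lay inside the rd10 range in all 3, at 6.83, 2.67 and 12.2 CPM. Transcripts annotated with a retained intron held 29.2% to 70.2% of Psmb8 counts in W1 to W3 and 30.5% to 54.0% in rd10. For Psmb10 they held 32.4% to 64.2% and 30.1% to 52.0%. Protein-coding transcripts held 5.76% to 100% of Psmb9 counts in W1 to W3 and 23.2% to 75.0% in rd10. These shares are estimates with no test.

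None of the constitutive subunits that they replace was called higher. In rd10 DMSO against W1 to W3, 26.9% of all genes rose and 25.5% fell. These shares were 40.3% and 13.9% with scaling by size alone and 29.9% and 29.7% without D3. Of Psmb5, Psmb6 and Psmb7, 0 rose and 1 fell, or 0 and 0 when libraries were scaled by size alone, and 0 and 2 without D3 (alternatives for the lists were chosen after seeing the data). Psmb6 fell by 0.39 on the log2 scale (edgeR adjusted p = 0.0043), from 77.5 ± 5.57 CPM (SD, n = 3) in W1 to W3 to 60.2 ± 4.23 in rd10 DMSO, and scaling by size alone left -0.15, not called. Psmb5 (log2 fold change -0.26, edgeR adjusted p = 0.143) and Psmb7 (-0.14, 0.111) did not pass. Of 12 other subunits of the core particle, 0 rose and 3 fell, namely Psma7, Psmb4 and Psmb3, by 0.22 to 0.32, but scaling by size alone gave 2 that rose and 0 that fell, and without D3 0 rose and 7 fell. The 3 of 12 that fell are near the 25.5% of all genes, while the 7 of 12 without D3 are above the 29.7% of that fit. Psme1, one subunit of the proteasome activator PA28, rose from 16.7, 20.3 and 17.5 CPM in W1 to W3 to between 31.8 and 38.4 in rd10 (log2 fold change 0.92 ± 0.10, edgeR adjusted p = 0.00027). Its partner Psme2 had a log2 fold change of -0.01 with a 95% interval from -0.23 to 0.20. Of the other activators and assembly factors, the chaperones Psmg3 and Psmg2 fell by 0.77 and 0.53, and by 0.52 and 0.29 with scaling by size, which still passed. In this list of 10, 1 rose and 2 fell, against 3 and 2 with scaling by size and 1 and 3 without D3. The shares of all genes in these fits are those given above. With W4 among the WT libraries, edgeR called 0 genes of any pathway or marker list in either direction.

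Set per kilobase of transcript, each inducible subunit stayed below its constitutive partner in every library. Psmb8 made 1.98% to 3.05% of the Psmb5 level in W1 to W3 and 7.79% to 12.4% in the rd10 libraries. Psmb9 made 0.324% to 0.585% of the Psmb6 level in W1 to W3 and 1.68% to 3.30% in rd10. Psmb10, the most abundant of the 3 per kilobase, made 8.12% to 11.5% of the Psmb7 level in W1 to W3 and 16.1% to 24.7% in rd10. The scaling of libraries cancels in such a ratio. The levels count every transcript of a gene, coding or not. The ratios of W1 to W3 and of rd10 did not overlap in any of the 3 pairs, and W4, at 8.98%, 2.13% and 21.8%, lay with rd10.

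**Figure D3:**
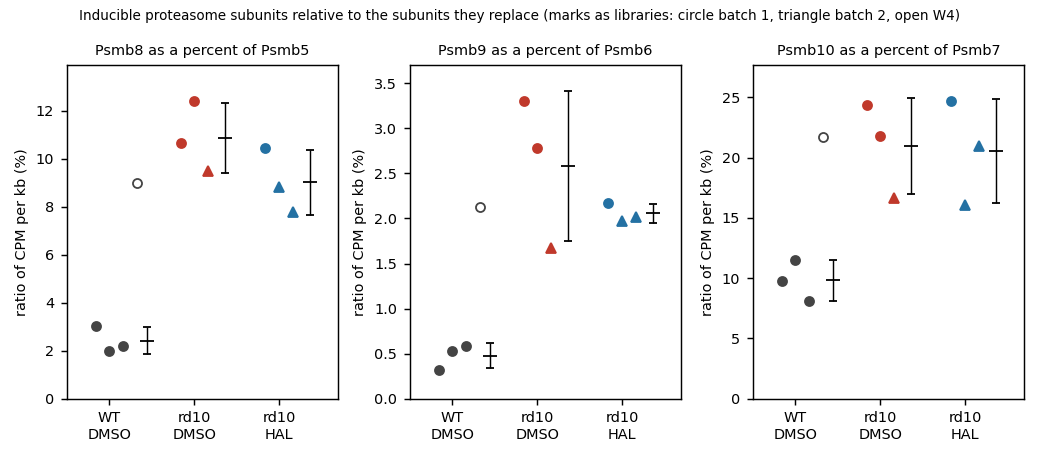
Level per kilobase of each inducible subunit as a percent of its constitutive partner, by library, on axes that start at 0. Circles are batch 1, triangles batch 2, the open circle is W4, and bars give mean ± SD of 3 libraries with W4 left out. The 6 rd10 libraries lie above W1 to W3 in each pair, and no ratio passes 24.7%.

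Nlrc5, the class I transactivator, had the largest fold change of the 10 genes in this comparison. It gave 1.52, 1.26 and 1.17 CPM in W1 to W3, on 20 to 32 counts. The rd10 retinas had 11.9, 13.6 and 9.04 CPM in D1 to D3 and 12.6, 8.60 and 10.7 in H1 to H3. The lowest rd10 library was 5.67-fold the highest of W1 to W3, and W4 was at 9.58 CPM. Nlrc5 rose 8.81-fold (log2 fold change 3.14 ± 0.22, edgeR adjusted p = 3.8e-05), or by 1.74 with W4 included, with a 95% interval from -0.07 to 3.56 (edgeR adjusted p = 0.189).

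Per kilobase, H2-D1 (19.7 ± 1.08 CPM per kb, SD, n = 3), Tapbp (18.9 ± 1.65) and B2m (18.7 ± 2.11) led in W1 to W3 and did not differ beyond their spread. H2-K1 (11.9 ± 0.859) and Psmb10 (6.16 ± 1.19) came next, and Nlrc5 was lowest at 0.195 ± 0.027. In rd10 DMSO the order had changed. B2m led with 94.4 ± 13.8 CPM per kb, H2-D1 (51.9 ± 7.17) and H2-K1 (50.4 ± 6.63) were alike within their spread, and Tapbp stood at 17.9 ± 3.09. Per kilobase, B2m made 51.2% to 70.1% of the sum of H2-K1 and H2-D1 in W1 to W3 and 73.5% to 94.8% in rd10, with W4 above both at 100.6%. Nlrc5 remained the lowest at 1.71 ± 0.345 CPM per kb, with Psmb9 (1.98 ± 0.753) not apart from it.

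Of 21 listed factors known to act on class I promoters, 20 were tested in rd10 DMSO against W1 to W3, 11 rose and 6 fell, with a median log2 fold change of 0.34, where 26.9% of all genes rose and 25.5% fell. The share that fell was near this background. With scaling by library size alone 13 rose and 3 fell, where 40.3% and 13.9% of all genes did. Irf1, an interferon-induced factor that binds the interferon response element, was at 4.26 to 4.36 CPM in W1 to W3 and at 11.9 to 15.0 in rd10 (log2 fold change 1.60 ± 0.13, edgeR adjusted p = 6e-05). Stat3, a factor of the interleukin 6 family of cytokines, rose by 1.45, and Nfkb1, a subunit of NF-κB, by 0.91. Rfx5, the DNA-binding RFX subunit, had a log2 fold change of -0.09 (edgeR adjusted p = 0.322). Irf3 fell by 1.15, Nfya, an NF-Y subunit that binds the Y box, by 0.96 and Creb1 by 0.46, and these falls were 0.91, 0.72 and 0.22 and still passed with scaling by library size.

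Of the interferon genes themselves, only Ifnb1 and Ifng were listed. Ifnb1 had no count in 9 of 10 libraries, and Ifng none in 8 of 10. Of 11 listed interferon ligands, receptors and kinases, 9 were tested, 4 rose and 1 fell, where 26.9% and 25.5% of all genes did, or 6 and 1 with scaling by library size alone, where 40.3% and 13.9% did. Ifnar2, a chain of the type I interferon receptor, rose from between 5.19 and 6.13 CPM to between 10.7 and 11.9, and Ifngr1, the ligand-binding chain for interferon gamma, fell by 0.52 on the log2 scale. Il10rb (log2 fold change 1.23) and Ifnlr1 (2.10), the chains of the interferon lambda receptor, rose. Class I-like molecules gave 3 that rose and 0 that fell of 5 tested, beside the same shares of 26.9% and 25.5% of all genes. These were Mr1, which presents metabolites (log2 fold change 0.97), Cd1d1, which presents lipids (0.75), and Fcgrt, the Fc receptor that pairs with B2m (1.08).

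**Figure D4:**
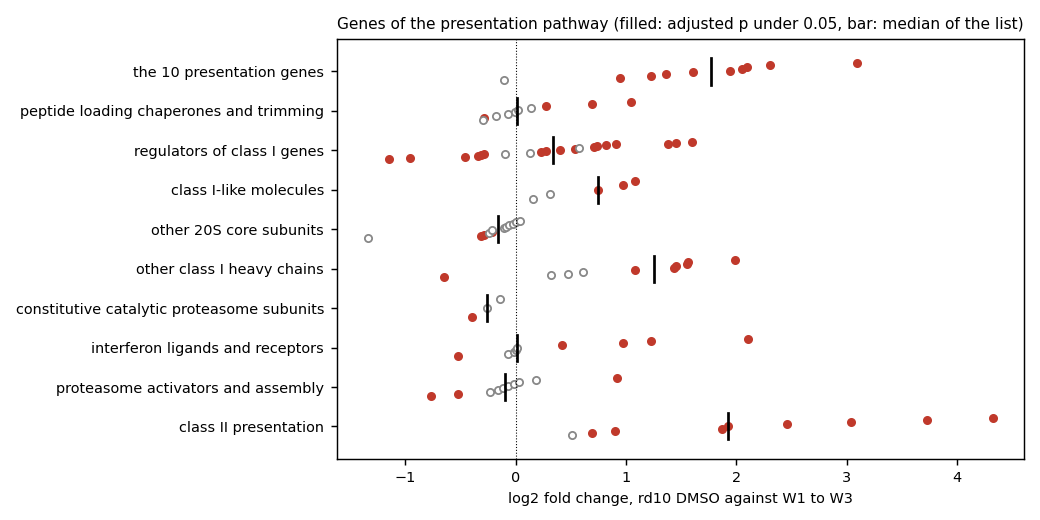
Log2 fold change of each tested gene of the presentation pathway in rd10 DMSO against W1 to W3, all from the transcript table. Filled points passed an adjusted p of 0.05 (edgeR), and the bar is the median of a list. The 10 presentation genes and the class II genes lie mostly to the right of 0, while the constitutive proteasome subunits lie to its left, a side that Psmb7 leaves (0.10) when libraries are scaled by size alone.

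Class II genes, which present peptides from outside the cell and mark professional presenting cells, were higher as well. Of 9 tested, 8 rose and 0 fell, where 26.9% of all genes rose and 25.5% fell. Cd74, the invariant chain, measured 0.19, 0.302 and 0.7 CPM in W1 to W3 and 14.9, 4.79 and 4.24 in D1 to D3, with 4.10 to 8.18 in rd10 HAL (log2 fold change 4.33 ± 0.68, edgeR adjusted p = 0.0013). Ctss, the protease that degrades the invariant chain, rose by 2.46 and H2-Aa, a class II chain, by 3.73. Relative to its mean, the spread of Cd74 among D1 to D3 was wider than that of any of the 10 class I genes. Ciita, the class II transactivator, stayed under 0.7 CPM in every library and was not tested in this comparison.

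Markers of other cells moved with the class I genes. In rd10 DMSO against W1 to W3, 26.9% of all genes rose and 25.5% fell, or 40.3% and 13.9% with scaling by library size. All 14 microglia and phagocyte markers rose, and their summed level was 59.9 to 66.8 CPM in W1 to W3, 199 to 243 in rd10 DMSO, 207 to 226 in rd10 HAL and 218 in W4. All 10 markers of reactive gliosis rose, with a summed level of 183 to 219 CPM in W1 to W3 and 994 to 1149 in rd10, as did all 10 Müller glia markers (3932 to 4132 in W1 to W3 and 6020 to 6955 in rd10). All 12 rod markers fell, from 74408 to 78545 CPM summed in W1 to W3 to between 3688 and 11101 in rd10. These counts were the same under size scaling, RLE scaling, DESeq2 and without D3. The part of these cells in the class I result was not tested.

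Markers of T and NK cells were low. The 15 T and NK cell markers had a summed level of 1.09 to 1.76 CPM in W1 to W3 against 2.52 to 3.21 in rd10, and 1 of the 15, Cd8a, was expressed enough to be tested in rd10 DMSO against W1 to W3 (log2 fold change 0.90, edgeR adjusted p = 0.082, called with scaling by size alone). In rd10 HAL against W1 to W3 Cd8a was called higher (log2 fold change 1.05, edgeR adjusted p = 0.03). Cd3e, which defines T cells, was at most 0.123 CPM in any library, and 0 of the 15 were at 0 in every library. The 10 endothelial markers had a summed level of 276 to 308 CPM in W1 to W3. It was 486 to 673 in the 6 rd10 libraries and 666 in W4. Their median log2 fold change in rd10 DMSO against W1 to W3 was 0.40. In rd10 DMSO against W1 to W3, 2 of the 10 were called higher, Kdr and Flt1, where 26.9% of all genes were. With scaling by library size 4 were called and without D3 5, where 40.3% and 29.9% of all genes were. In rd10 HAL against W1 to W3 6 were called higher, where 30.9% of all genes were. Their part in the class I result was not tested. Pigment epithelium markers differed widely within groups, from 66.1 to 365 CPM summed in W1 to W3 and from 179 to 770 in rd10, and D1 and D3 were highest. In rd10 DMSO against W1 to W3, 4 of 11 were called higher, or 6 with scaling by library size, beside the same shares of all genes as above. Blood markers summed to 104 and 86.7 CPM in H2 and H3, to 12.7 to 32.8 in the other rd10 libraries and to 37.9 to 68.2 in W1 to W3. In rd10 DMSO against W1 to W3, 4 of 5 were called lower, where 25.5% of all genes were, or 1 with scaling by library size, where 13.9% were, and 3 without D3, where 29.7% were.

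**Figure D5:**
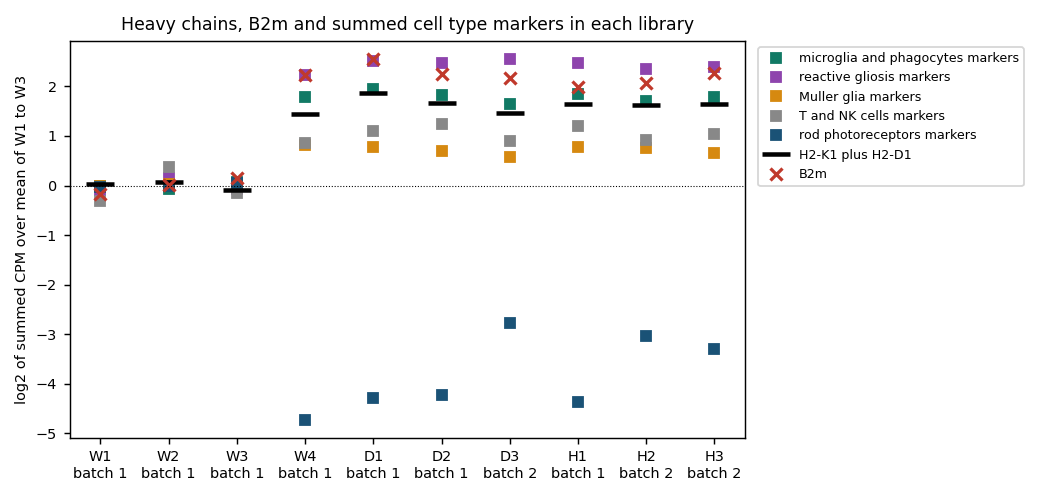
Log2 ratio of H2-K1 plus H2-D1, of B2m and of summed cell type markers in each library to the mean of W1 to W3. W4 lies nearer to the rd10 libraries than to W1 to W3 in every series, and the rod markers of D3, H2 and H3 lie above those of D1, D2 and H1.

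Halofantrine was compared with DMSO in rd10 to ask whether treatment moved these genes. No class I presentation gene was called: edgeR called 0 of 7 and 0 of 3, where 0% of 11692 and 0% of 17891 genes were called. At an unadjusted p under 0.05 there were 0 of 7 and 0 of 3, against 4.76% and 4.70% of all genes, and DESeq2 and limma-voom called 0 of 7. The rd10 HAL and rd10 DMSO libraries overlapped in all 10 genes, while 13.1% of genes in the gene table did not overlap. The median log2 fold change was -0.11 over the 7 genes and also over the 3.

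The intervals show how large a change could have been missed. B2m came closest to a difference, with a log2 fold change of -0.22 and a 95% interval from -0.51 to 0.06 (edgeR adjusted p = 0.883). The interval was -0.33 to 0.12 for H2-K1, the narrowest of the 10, and -0.21 to 0.26 for H2-D1. For Tap2 it was -0.37 to 0.48, for Tapbp -0.19 to 0.38 and for Psmb10 -0.52 to 0.28. The rarer transcripts gave the widest intervals, -0.63 to 0.59 for Tap1, -0.62 to 0.41 for Psmb8, -0.97 to 0.38 for Psmb9 and -0.59 to 0.33 for Nlrc5. No interval reached a log2 fold change of 1 in either direction, and none of the 9 genes that rose over W1 to W3 had an interval that held a fall as large as its rise.

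Treatment and batch were uneven, since batch 1 held 1 HAL and 2 DMSO libraries of rd10 and batch 2 held 2 and 1. Within batch 1 the log2 ratio of HAL to DMSO was -0.43 for B2m, -0.17 for H2-K1 and -0.08 for H2-D1. Within batch 2 these were 0.01, 0.08 and 0.24. For Tap1 the ratio was -0.16 in batch 1 and 0.73 in batch 2, and for Psmb9 -0.36 and 0.36. The batch 2 ratios rest on D3 alone as control, the shallowest library, and there treatment and set cannot be told apart. The batch 1 ratios lie within a single set. With batch as a term in the fit, 0 of 7 were called and the log2 fold changes of Tap1 and Nlrc5 became 0.25 and 0.03, from -0.02 and -0.13. With set as a term, chosen after seeing the data, 0 of 7 were called, B2m had a log2 fold change of -0.43 and H2-D1 one of -0.08, and the estimate rests on D1, D2 and H1.

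In the halofantrine-treated retinas 9 of 10 genes rose over W1 to W3 too, with Tapbp again the exception. In rd10 HAL against W1 to W3, 6 of 7 and 3 of 3 rose, where 35.7% of 11699 and 30.9% of 17473 genes rose. Nlrc5 rose 8.01-fold. B2m (log2 fold change 2.12 ± 0.10), H2-K1 (1.98 ± 0.07) and H2-D1 (1.42 ± 0.05) had smaller standard errors (SE) than in the DMSO comparison. Tap1 (1.60), Tap2 (1.32), Psmb8 (1.84), Psmb9 (1.81) and Psmb10 (0.85) rose, and Tapbp had a log2 fold change of 0.03 (edgeR adjusted p = 0.74), which became 0.24 and was called when libraries were scaled by size alone (edgeR adjusted p = 0.013). These comparisons share the WT libraries with those of rd10 DMSO. With W4 included, edgeR called 0 of 7 and 0 of 3, where 0.00855% and 0.00562% of genes were called. At an unadjusted p under 0.05 there were 2 of 7 and 1 of 3, where 34.6% and 30.0% of all genes passed, so these counts were near the background. Of the other tools limma-voom called 0 of 7, and DESeq2 called 1 of 7, H2-D1 (DESeq2 adjusted p = 0.03). The share of all genes that DESeq2 called in this comparison is not reported here.

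The batches were compared in rd10 with treatment in the fit. All 10 genes were lower in batch 2, by 0.02 for B2m to 0.61 for Psmb9 on the log2 scale, although the signs of B2m and H2-D1 turned with some libraries left out. edgeR called 0 of 7 and 0 of 3, where 4.63% of 11698 and 1.97% of 18564 genes were called. At an unadjusted p under 0.05 there were 3 of 7 and 3 of 3, where 27.6% and 20.2% of all genes passed, and DESeq2 and limma-voom called 0 of 7. In 4 of 7 and in each of the 3 other genes, D3, H2 and H3 lay below D1, D2 and H1, as in 13.2% of all genes in the gene table. Nlrc5 was at 12.7 ± 0.89 CPM (SD, n = 3) in batch 1 and 9.47 ± 1.13 in batch 2, and Psmb8 at 7.47 ± 0.339 and 5.33 ± 0.764. Without H1, the only treated library of batch 1, the batch estimate rested on D3 alone against D1 and D2. It was then -0.68 for Tap2 and -1.08 for Tap1 on the log2 scale.

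Rod markers moved with batch, since all 12 rose in batch 2 with a median log2 fold change of 1.23. The microglia markers summed to 225 to 243 CPM in D1, D2 and H1 and to 199 to 218 in D3, H2 and H3, with 0 of 14 called. Of the glial and vessel markers, 2 of 10 Müller glia markers (Rlbp1 and Abca8a), 2 of 10 of reactive gliosis (Steap4 and Gfap) and 1 of 10 of endothelium (Kdr) were called lower in batch 2, where 1.97% of all genes were called in either direction. The part of rod RNA and of these cells in the batch difference was not tested.

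Genes outside these lists whose pattern was nearest to the mean pattern of the 7 genes were found by the Euclidean distance of mean-centred log2 CPM. Over 10 libraries they were Tnc (0.216), Plpp3 (0.239), Sulf2 (0.26), Cyp1b1 (0.277) and Axl (0.31), against 2.32 for the median gene. Tnc, an extracellular matrix protein, was at 20.1 to 22.4 CPM in W1 to W3 and 50.7 to 65.1 in rd10, with W4 at 58.3. Of the 7, H2-D1 (0.335) lay nearest to their mean, and Nlrc5 (2.13) and Tapbp (2.30) farthest. Within the 6 rd10 libraries the nearest were Magt1 (0.0472), Nos1ap (0.0717), Tmem170 (0.0728), Nsmce1 (0.0785) and Socs6 (0.08), against a median of 0.43. Tmem170 was lower in rd10 than in W1 to W3, so that the patterns within rd10 and across genotype were not the same.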

How the data were processed

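Stranded mRNA libraries of 10 retinas were pseudoaligned by the authors with kallisto (Ensembl mouse transcriptome per the study's methods and GRCm39 in the submitters' processing notes; tool versions not given in the sources used here) and imported with tximport. They deposited expected counts per transcript and per gene, unscaled. The deposited CPM values are a signal scaled by the authors with TMM factors, and their ratio to TMM CPM computed here was 0.974 to 1.02 for values over 1. The authors' table of the halofantrine comparison (fold changes and p-values) was not used.

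Counts were rounded and summed per gene (GENCODE M21 names, 48.7% of transcripts and at least 97.4% of counts), filtered by filterByExpr, TMM-scaled and tested with the quasi-likelihood test of edgeR 4.0.16 (R 4.3.3), with Benjamini-Hochberg adjustment over all genes tested and a threshold of 0.05. For the 7 genes in both tables the sums were equal, and pathway and marker lists were read from the transcript table. Levels are counts over the TMM-scaled library size. Per kilobase levels used transcript lengths weighted by counts. Alternatives were DESeq2 1.42.0, limma-voom (limma 3.58.1), other scalings, no filter, 1 fit of all libraries, log2 of the deposited CPM plus 1, batch terms and leaving out each library. The script was tested on simulated data. Other scalings, DESeq2 and a fit without D3 for the lists, and set as a term for halofantrine, were added after seeing the data.

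The genes and lists were chosen with earlier results of these data known. Named genes were the 10, their constitutive partners, Psme1, Psme2, Irf1 and Rfx5, up to 3 called genes per direction and list by p, the most abundant marker of a list and the 5 nearest genes by pattern; further genes were named after their values were seen, and some genes the rule names are not reported here. The titles name sets, of which 1 holds both rd10 groups, but pair no single libraries and do not say what a set was, so p-values measure the spread between these 10 libraries. Chi-square per gene for pairs within a group was 4.48 to 431, and none was a copy.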

Additional observations from a re-analysis of the deposited data

Results flagged for a closer look

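W4 stood apart from W1 to W3 in 9 results. The measure is the gap from W4 to its nearest neighbour as a share of the range of the 4 WT libraries, which passes 0.829 in about 1 of 20 groups by chance. It was 0.941 for B2m (W4 at 75.2 CPM), 0.95 for H2-K1 (58.2), 0.918 for H2-D1 (68.9), 0.86 for Tap1 (7.02), 0.892 for Psmb8 (6.83), 0.863 for Psmb9 (2.67) and 0.958 for Nlrc5 (9.58). It was 0.848 for Psmb8 as a percent of Psmb5 (8.98%) and 0.855 for Psmb9 as a percent of Psmb6 (2.13%). Tap2, Tapbp, Psmb10 and the other ratios did not pass. W4 had already been set apart by its rod RNA, and the 9 results share the same 4 libraries, so they are not independent. The share of all genes that pass was not computed.

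In the halofantrine comparison, 6 results went in opposite directions in the batches: every HAL library lay below every DMSO library in batch 1 and above in batch 2. The difference between the batches in log2 ratio of HAL to DMSO, batch 1 minus batch 2, was -0.247 for H2-K1, -0.891 for Tap1, -0.573 for Tap2, -0.375 for Psmb8 and -0.725 for Psmb9. It was -0.741 for Psmb9 as a percent of Psmb6. These differences were not tested, and each batch has a group of 1 library, H1 in batch 1 and D3 in batch 2. D3 was the lowest of all rd10 libraries in 7 of the 10 genes. The share of all genes with this pattern was not computed.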

How the results depend on the processing

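No paired analysis was possible because the labels tie no single library of one group to a library of another and the replicate numbers follow accession order. The titles place D1, D2 and H1 in a shared set, and set as a term, added after seeing the data, called 0 in the halofantrine comparison and turned H2-D1 to -0.078 and Tap2 to -0.058. Against W1 to W3, the 6 called genes of 7 were called under every alternative run, leave-one-out included, in both rd10 groups. Scaling by library size alone called Tapbp too in rd10 HAL, 7 of 7. The share of all genes in that fit is not reported here. In rd10 DMSO against W1 to W3 this scaling raised the share called higher in the transcript table from 26.9% to 40.3%. With 4 WT libraries, leaving out each library in turn gave 0 to 6 called genes in both rd10 groups, 6 only without W4, and DESeq2 gave 1 in rd10 HAL. In batch 2 against batch 1, leaving out D1, D2, H2 or H3 in turn called 0 of 7. Without H1 the estimate sets D3 alone against D1 and D2, and without D3 it sets H1 alone against H2 and H3. With no filter Tap1 was called (-0.59). Over single genes, 779 values kept their sign and side of the threshold, 24 passed it newly and 29 changed sign, all of changes that were not called. Tapbp against WT turned to 0.11 and 0.14 by library size (4 and 3 WT libraries) and to 0.079 and 0.050 in batch 1 alone. Leaving out each library moved it from -0.17 to 0.079 and from -0.19 to 0.050, and in rd10 HAL against W1 to W3 from -0.036 to 0.089. In the halofantrine comparison a batch term turned Tap1 to 0.25, Psmb8 to 0.10 and Nlrc5 to 0.033, and 1 fit of all libraries turned Tap1 to 0.0046. There, leaving out each library moved H2-D1 from -0.068 to 0.13, Tap1 from -0.28 to 0.18, Tap2 from -0.13 to 0.16, Tapbp from -0.010 to 0.23, Psmb8 from -0.29 to 0.048, Psmb10 from -0.24 to 0.011 and Nlrc5 from -0.26 to 0.018. Between batches it moved B2m from -0.24 to 0.19 and H2-D1 from -0.31 to 0.0089. For the pathway and marker lists, RLE scaling and DESeq2 moved each count by at most 1 gene, and the counts that moved with size scaling or without D3 stand beside the counts given in the report. The cause of these changes was not tested. Depth limits Psmb9, Nlrc5, Psmb8 and Tap1, with 11 to 62 counts in W1 to W3.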
